A study of Mus musculus with 2 samples.

Results

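A group of 7 genes that serve the nucleolus or the ribosome lies in the first part of mouse chromosome 1, and its place in the contact map of the nucleus was read here in wild-type and *Lin28a* knockout embryonic stem (ES) cells. The members were chosen by function and position: 4 nucleolar genes (*Ncl*, *Rrs1*, *Nop58* and *Wdr75*) and 3 genes of ribosomal proteins (*Rpl7*, *Rpl31* and *Rpl37a*), 7 of the 497 protein-coding genes in the stretch of chromosome 1 from 3 to 90.75 Mb of assembly GRCm38. Each member was described through the 250 kb bin that holds its midpoint, 7 of 351 bins, and through the 100 kb bin of its midpoint where finer values were needed. The bins hold other genes too, so a value of a bin is not a value of its member alone.

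The nucleolus forms around the ribosomal DNA repeats, where ribosomal RNA is transcribed, cut, modified and joined to ribosomal proteins. In laboratory mice these repeats sit next to the centromeres of several chromosomes, of which 12, 15, 16, 18 and 19 were examined here. The genes of nucleolar and ribosomal proteins are transcribed outside the nucleolus by another polymerase, and they are among the most active genes of ES cells.

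The data were Hi-C libraries, in which pieces of DNA held near each other by cross-linking are ligated and both ends of each product are sequenced. There was 1 library of wild-type ES cells and 1 of *Lin28a* knockout ES cells, both grown on gelatin with mouse embryonic fibroblast (MEF) feeder cells in LIF/2i medium. The study worked with more than one kind of *Lin28*-deficient line, among them single clones made by CRISPR/Cas9, and which of them gave this library is not stated. Its usual parent line was E14, with V6.5 in some experiments, and the labels name neither. The *Lin28a* genotype of the feeder cells is not stated, and what share of the DNA came from them is not known. The labels mention repeat preparations for each group, but each group has 1 list of pairs. Read names showed 2 sequencing runs in each list, and whether these are the repeat preparations is not stated, so they were not used as replicates and the 2 groups could not be tested against each other.

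The shared stretch gave 5767991 pairs in wild-type cells and 4412861 in knockout cells. All intervals (95%) reflect counting error alone and say nothing of the spread between cultures. *Lin28a* itself (chromosome 4, 134003330 to 134019196) was seen only as a partner of chromosome 1, with 12 and 15 ends, a ratio of 1.63 (0.711 to 3.80). A count of ends over the whole gene cannot show a small lesion, so the knockout was not checked here. Pairs 30 Mb or more apart made up 23.1% of cis pairs of at least 20 kb in wild-type cells and 18.4% in knockout cells, and partners on chromosomes 6 and 8 took 6.93% and 5.56% of autosomal trans pairs in wild-type cells and 8.60% and 7.42% in knockout cells. Shares whose total holds partners on chromosomes 6 and 8 are therefore also given without them, and the local share also without the far pairs in its total.

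From the centromere outward, *Rrs1* lies at 9545408 to 9547455 on the plus strand, *Rpl7* at 16101295 to 16104433 on the minus strand, *Rpl31* at 39367851 to 39371911 on the plus strand and *Wdr75* at 45795153 to 45823638 on the plus strand. *Nop58* follows at 59684961 to 59711510 on the plus strand, *Rpl37a* at 72711260 to 72713813 on the plus strand and *Ncl* at 86344719 to 86359455 on the minus strand. The bin of *Rrs1* also touches *Adhfe1*, *Vxn*, *Mybl1* and *Vcpip1*, and that of *Rpl7* touches *4930444P10Rik*, *Rdh10* and *Stau2*. *Rpl31* shares its bin with *Npas2* and *Tbc1d8*, *Wdr75* with the iron exporter gene *Slc40a1*, *Nop58* with *Gm973* among others, *Rpl37a* with *Marchf4*, *Smarcal1* and *Ankar*, and *Ncl* with *Armc9*, *B3gnt7*, *Nmur1* and *Tex44*. None of these neighbours encodes a ribosomal protein, and the closest members are 6.44 Mb apart, so the members do not form a cluster on the chromosome.

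A feature that the choice of members did not use is that 2 of the nucleolar genes are hosts of small nucleolar RNAs (snoRNAs), which guide the modification of ribosomal RNA in the nucleolus. The RefSeq annotation places 4 snoRNA genes within *Nop58* and 2 within *Ncl*, and 0 in the other members. No share of all coding genes that host a snoRNA is given, so hosting is not shown to set the members apart. Those named Snord belong to the box C/D class, the class that NOP58 protein itself binds. Those in which both boxes were found are printed as the RNA strand reads, from the GRCm38 genome. Capitals mark TGATG (core of box C) starting within 20 bases of the 5′ end and CTGA (box D) starting within 20 bases of the 3′ end.
LOC115485825 (in *Nop58*, 59692509 to 59692592, plus strand): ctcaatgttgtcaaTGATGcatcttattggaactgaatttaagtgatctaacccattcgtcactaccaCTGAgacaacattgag
Gm26287 (in *Nop58*, 59704258 to 59704338, plus strand): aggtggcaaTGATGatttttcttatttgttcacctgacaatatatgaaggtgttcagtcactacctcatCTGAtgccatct
Snord11 (in *Nop58*, 59704808 to 59704870, plus strand): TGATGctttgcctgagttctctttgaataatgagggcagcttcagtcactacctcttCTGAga
Snord82 (in *Ncl*, 86356260 to 86356327, minus strand): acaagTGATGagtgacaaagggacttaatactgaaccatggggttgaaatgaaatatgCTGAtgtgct
Both letter strings were found in 6 of the 38 snoRNA genes of the shared stretch (15.8%), and these 4 are among the 6. Only the annotated strand was searched. *Snord70* in *Nop58* held the D string alone, and *Snora75* in *Ncl* held neither.

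The genes themselves gave few pair ends, which is why bins were used. *Ncl* had 2117 ends in wild-type cells and 1727 in knockout cells, *Nop58* 3420 and 2835, and *Wdr75* 2716 and 2292, whereas the short *Rrs1* had 137 and 131. Ends in *Rrs1* had a mapping quality of 30 or more at both ends of the pair in 69.3% and 63.4% of cases, below the 86.6% and 85.3% of all pairs. The 250 kb bins held 22538 to 35301 ends in wild-type cells and 17996 to 28297 in knockout cells. The cutting motif GATC, to which the fragment numbers of the lists correspond, occurred 604 to 658 times per member bin, and the median over all bins was 618.

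Compartments divide a chromosome into gene-rich A stretches and gene-poor B stretches that prefer contacts of their own kind. The compartment value comes from the leading patterns of contacts after correction for distance, as the one that follows the count of coding genes more closely. It is in SD units over bins, with positive values for A. *Nop58*, the core protein of box C/D particles, stood at 1.62 in wild-type cells and 1.73 in knockout cells. *Ncl*, the gene of nucleolin, an abundant protein that binds ribosomal RNA precursors, stood at 1.48 and 1.52. *Rpl31* and *Rpl37a*, both proteins of the large ribosomal subunit, were at 1.62 and 1.67 and at 1.49 and 1.51. These 4 bins were thus among the most A-like of the stretch, between percentiles 91.1 and 99.1 in wild-type cells and between 91.4 and 99.7 in knockout cells.

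The other 3 members were not of that kind. *Rrs1*, a factor in the assembly of the large subunit, had 0.59 and 0.65. *Rpl7*, another large subunit protein, had 0.22 and 0.12 and lay at the rim of a small A stretch, with 0.96 and 0.90 in the bin before it and -0.53 and -0.42 in the bin after it. *Wdr75*, part of the complex that processes the small subunit precursor and supports ribosomal DNA transcription, had -0.70 and -0.60 and was the 1 member in B. All 4 bins on either side of *Wdr75* were negative in both libraries as well, from -1.13 to -0.69 in wild-type cells. In both libraries the 4 high members came first, then *Rrs1*, *Rpl7* and *Wdr75*. The SD of the knockout minus wild-type differences over bins was 0.154, and levels closer than that have no order here. This holds for the 4 high members in wild-type cells, while in knockout cells *Nop58* and *Rpl31* stood above *Ncl* and *Rpl37a* by little more than that SD.

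In all, 6 of 7 members were in A in both libraries, beside 64.5% and 65.0% of the 197 bins that hold a coding gene. In 500 kb bins *Rpl7* was on the B side, at -0.20 and -0.24, so its place in A depends on the bin size. In 250 kb bins the median over the members was 1.48 and 1.51, and over coding bins 0.58 and 0.60. Between the libraries the members hardly moved. The knockout minus wild-type difference ran from -0.10 for *Rpl7* to 0.11 for *Nop58*, with a median of 0.05, and over all bins the median was 0.01. A difference over 0.25 SD in either direction was found for 0 of 7 members and for 8.33% of all bins. In 100 kb bins 3 members passed it, beside 20.4% of bins of that size, and not in 1 direction: *Rpl31* differed by 0.33, *Nop58* by 0.30 and *Rpl37a* by -0.27.

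**Figure D1:**
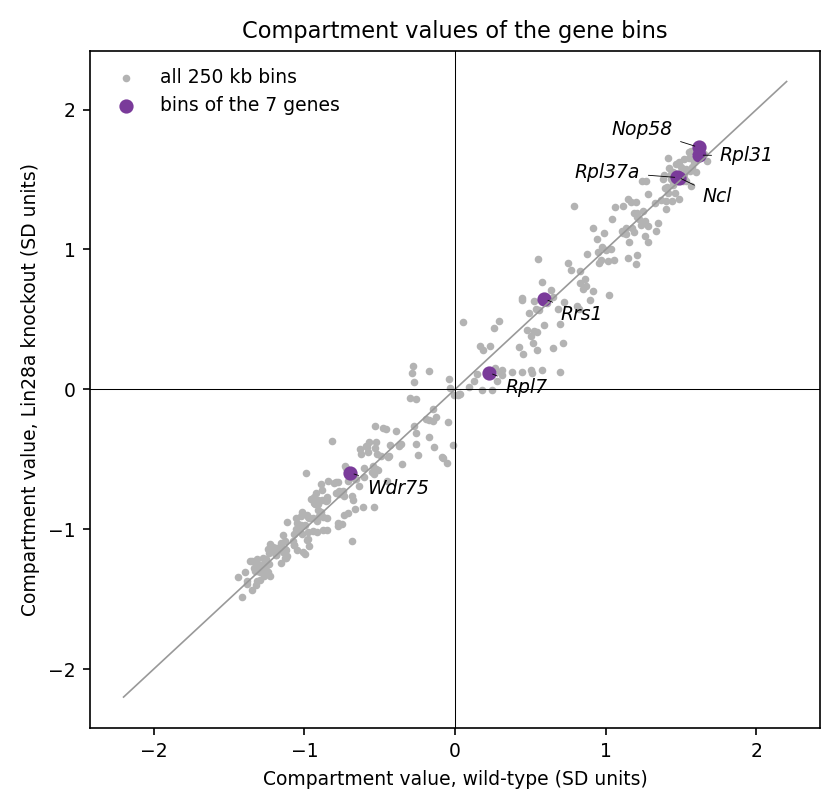
Compartment value of each 250 kb bin in wild-type cells (x axis) and the knockout library (y axis), both in SD units, with the line of equal values. Grey points are all bins of the shared stretch and purple points the bins of the 7 genes: *Rpl31*, *Nop58*, *Rpl37a* and *Ncl* sit together near the upper end, *Rrs1* and *Rpl7* at 0.59 and 0.22 in wild-type cells, and *Wdr75* below 0 in both.

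Insulation asks whether contacts pass over a position or stop there. The score is the mean contact of the 500 kb before a 100 kb bin with the 500 kb after it, as log2 over the mean of the stretch, so that low values mark boundaries between domains. *Wdr75* had the lowest score, -0.80 in wild-type cells and -0.78 in knockout cells, from 1126 and 982 raw crossing pairs.
Next were *Nop58* with -0.67 and -0.58 (1837 and 1623 pairs) and *Rrs1* with -0.62 and -0.63 (1650 and 1352 pairs). Of these, *Nop58* was the lower in wild-type cells and *Rrs1* in knockout cells. *Wdr75*, *Nop58* and *Rrs1*, 3 nucleolar genes, were at or below percentile 6.89 of all bins in both libraries. *Ncl* was at -0.31 and -0.35, *Rpl7* at -0.30 and -0.32, *Rpl37a* at -0.15 and -0.11, and *Rpl31* alone was above 0, at 0.08 in both libraries.

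A boundary was called at a minimum of the score with a prominence of at least 0.1. In the wild-type library 5 of 7 members lay at or next to a boundary bin, and in knockout cells 6 of 7, beside 45.9% and 45.3% of the 318 bins that hold a coding gene. The extra member in knockout cells was *Rpl7*, whose nearest boundary was 200 kb away in wild-type cells and 100 kb away in knockout cells. Its scores were nearly level there. In wild-type cells they were -0.297 at its bin and -0.302 at 200 kb further from the centromere. In knockout cells they were -0.323 at its bin and -0.327 at 100 kb on the centromere side. Both gaps are far below the SD of the differences over bins, 0.0749, so the counts of 5 and 6 have no order here. *Rpl31* was 300 kb from a boundary in both. *Rrs1* was on a boundary bin in both libraries, whereas *Wdr75*, *Nop58* and *Rpl37a* were 1 bin away in both. *Ncl* was 1 bin away in wild-type cells and on a boundary bin in knockout cells. Its bin and the bin 100 kb further from the centromere had -0.31 and -0.36 in wild-type cells and -0.35 and -0.29 in knockout cells. These gaps too are below that SD. No other setting is given for the boundaries. All boundary distances are from the bin of the midpoint, and *Wdr75* and *Nop58* themselves extend into the neighbouring bin that held the boundary.

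The score differed between the libraries by -0.04 (*Ncl*) to 0.09 (*Nop58*), with a median of 0.00, and the SD of the differences over bins was 0.0749. A difference over 0.1 was found for 0 of 7 members and for 16.3% of all bins. That count depends on the setting. With a 300 kb square 4 of 7 members passed, beside 26.4% of bins: *Nop58* by 0.15, *Wdr75* by 0.13, *Rpl37a* by 0.11 and *Rpl7* by -0.10. *Nop58* alone, 1 of 7, passed at a mapping quality of 30 or more (0.13, beside 16.8% of bins), in the larger run (0.11, beside 14.9%), without thinning (0.11, beside 15.3%) and without balancing (0.10, beside 23.0%). With a 1 Mb square 0 of 7 passed, beside 8.94% of bins, and *Nop58* was at -0.03, so its direction turned. By raw crossing pairs, scaled to all crossing pairs of the library, the ratio of knockout to wild-type excluded 1 for 1 of 7 members and for 26.7% of bins. That member was *Nop58*, with a ratio of 1.09 (1.02 to 1.16). For *Wdr75* the ratio was 1.07 (0.985 to 1.17) and for *Ncl* 0.950 (0.888 to 1.02), so a difference was not detectable at this depth for either.

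The surroundings of *Ncl* differed more than its own bin. At 300 kb on the centromere side of *Ncl* the score was -0.10 in wild-type cells and -0.42 in knockout cells, and at 400 kb it was 0.29 and -0.04. On the other side, at 300 kb, it was -0.07 and -0.11. Within 1 Mb of *Ncl* 4 bins differed by over 0.2, a limit chosen after seeing the data, and within 1 Mb of the other members 0 bins did. Over the stretch 12 of 855 bins did (1.40%). The squares of neighbouring bins overlap, so the 4 bins near *Ncl* are not separate differences. They lie near a strong minimum, with scores of -1.35 and -1.30 at 800 kb on the centromere side. On that side the 250 kb bin at 1000 kb had no compartment value, and that at 750 kb had 0.51 and 0.12. No other setting is given for these bins. Around members other than *Ncl* the widest gap was 300 kb before *Wdr75*, with 0.09 and -0.08.

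**Figure D2:**
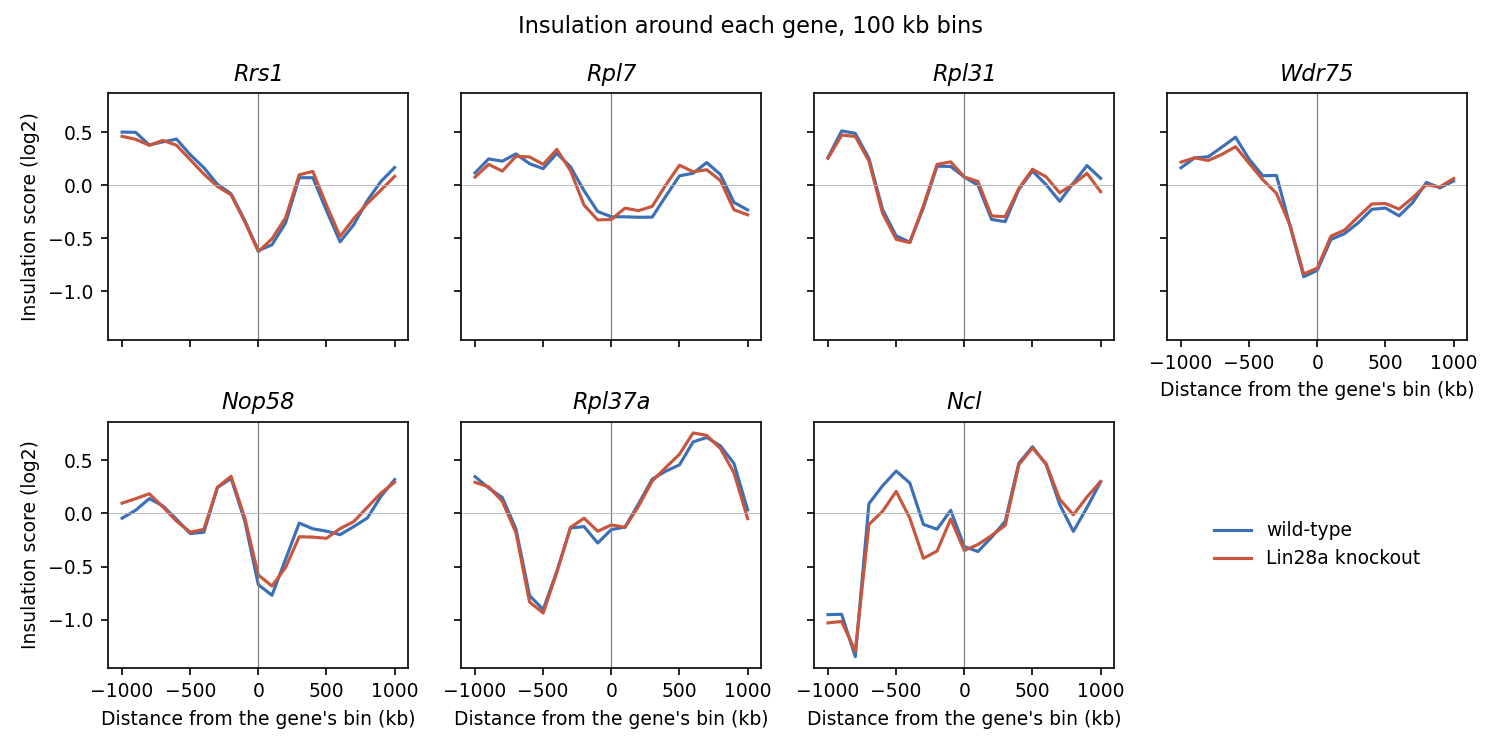
Insulation score (log2, y axis) in 100 kb bins within 1000 kb on either side of the bin of each gene (x axis, kb, positive away from the centromere), with the wild-type library in blue and the knockout library in red. The lines run together at the genes, dip at *Rrs1*, *Wdr75* and *Nop58*, and part on the centromere side of *Ncl*.

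The local cis share is the share of cis pairs of a bin, at least 20 kb apart, whose partner lies within 1 Mb. It was 45.7% (44.97% to 46.4%) for *Rpl31* in wild-type cells and 46.3% (45.5% to 47.2%) in knockout cells. The next members were *Rpl37a* with 44.6% and 45.2%, *Rrs1* with 44.1% and 45.5%, *Nop58* with 43.9% and 44.5%, *Rpl7* with 43.4% and 44.1% and *Ncl* with 43.2% and 42.8%. Neighbours in this order had overlapping intervals down to *Ncl*. *Wdr75* stood apart, at 33.3% (32.5% to 34.1%) and 33.4% (32.5% to 34.3%), percentiles 6.02 and 5.16 of all bins, while the median bin had 41.9% and 42.3%.

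The share was higher in knockout cells beyond counting error for 1 of 7 members, *Rrs1*, by 1.46 percentage points (0.267 to 2.66), beside 24.1% of all bins, and lower for 0 members beside 4.87% of bins. Pooled over the members the difference was 0.439 points (0.0139 to 0.864), and the median bin differed by 0.619 points. These calls depended on the setting, in both directions. At a mapping quality of 30 or more *Rrs1* differed by 1.31 points (-0.00454 to 2.63), with partners up to 500 kb by 0.788 (-0.353 to 1.93) and in 100 kb bins by 1.51 (-0.342 to 3.36). With partners up to 2 Mb 4 of 7 members were higher, beside 55.0% of bins: *Rpl7* by 2.48 points (1.27 to 3.69), *Rpl37a* by 2.29 (1.25 to 3.34), *Rrs1* by 1.48 (0.289 to 2.68) and *Nop58* by 1.08 (0.0124 to 2.14). The pooled difference was then 1.17 points (0.740 to 1.60), and the median bin differed by 1.36 points. In 100 kb bins *Rpl37a* alone was higher beyond counting error, by 2.52 points (0.911 to 4.12), and the pooled difference was 0.925 (0.273 to 1.58). No share of all bins and no median bin is given for that size. The pooled interval took in 0 at a mapping quality of 30 or more, in the larger run, with partners up to 500 kb and on leaving out any one of *Rrs1*, *Rpl7*, *Rpl31*, *Nop58* and *Rpl37a*. The denominator holds the very far pairs, which were fewer in knockout cells. With pairs up to 10 Mb as the denominator the pooled difference was -1.38 points (-1.88 to -0.882), and the median bin differed by -1.55 points. All 7 members had values below 0 there, but the interval excluded 0 for 2 of 7, beside 51.6% of bins lower in that way: *Rpl7* at -2.81 points (-4.20 to -1.41) and *Ncl* at -1.55 (-2.86 to -0.233). The direction of this measure thus rests on the denominator.

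At the far end of the distance range, pairs 10 Mb or more apart made up 40.2% of the cis pairs of *Ncl* in wild-type cells and 39.6% in knockout cells, a difference of -0.649 points (-1.76 to 0.457). For *Rpl7* they made up 29.3% and 24.7%, and for *Rrs1* 26.7% and 23.6%. The stretch starts at 3 Mb, so *Rrs1* had no room for such partners on its centromere side and *Rpl7* had little. Levels of this share are therefore not compared between members. The share was lower in knockout cells beyond counting error for 6 of 7 members, all but *Ncl*, beside 93.7% of all bins, and higher for 0 members beside 0.287% of bins. Among the members, the difference was furthest from 0 for *Rpl7*, at -4.60 points (-5.68 to -3.53), and the median over bins was -2.45 points.

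The trans share is the part of the pairs of a bin whose partner is on another autosome, with cis pairs under 20 kb left out of the total. This share was above that of the median bin for most members. It was 38.3% for *Ncl* in wild-type cells and 37.9% in knockout cells, 36.3% and 37.6% for *Nop58*, 35.3% and 36.6% for *Rpl31*, and 35.1% and 35.1% for *Rrs1*. *Rpl7* had 30.9% and 30.1%, *Rpl37a* 29.2% and 30.1%, and *Wdr75* 27.7% and 26.7%, while the median bin had 29.5% and 29.0%. *Ncl* was at percentile 99.1 of all bins in wild-type cells and *Nop58* at 96.6.

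The share was higher in knockout cells beyond counting error for 3 of 7 members, beside 6.88% of all bins. They were *Rpl31* by 1.34 points (0.506 to 2.17), *Nop58* by 1.27 (0.452 to 2.09) and *Rpl37a* by 0.917 (0.110 to 1.72). All 3 lie in the top 20% of bins by compartment value, where 27.5% of the 69 bins were higher in that way. *Ncl* lies there too and was not higher. The share was lower for 1 member, *Wdr75*, with a difference of -0.972 points (-1.91 to -0.0346), beside 33.5% of bins. Without partners on chromosomes 6 and 8 the 3 differences were 0.443 (-0.393 to 1.28), 0.370 (-0.451 to 1.19) and 0.00528 points (-0.792 to 0.803), and 0 of 7 members were higher beyond counting error, beside 1.43% of bins. In that reading 4 of 7 were lower beyond counting error, beside 68.2% of bins: *Rpl7* by -1.62 points (-2.54 to -0.692), *Ncl* by -1.46 (-2.32 to -0.587), *Wdr75* by -1.41 (-2.33 to -0.487) and *Rrs1* by -1.01 (-1.94 to -0.0914). The median bin differed by -1.34 points.

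Contacts of different members with each other were counted as pairs between their bins, over the number that distance and the totals of both bins give in the same library. Over all 21 combinations, 456 pairs were found in wild-type cells where 341 were expected, a ratio of 1.34 (1.22 to 1.46). In the knockout library 370 pairs were found where 264 were expected, a ratio of 1.40 (1.26 to 1.55). The pooled number was thus above that of bins at equal distance in both libraries, and the knockout over wild-type ratio of 1.05 (0.912 to 1.21) was within counting error.

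The 6 combinations of *Rpl31*, *Nop58*, *Rpl37a* and *Ncl* gave 234 pairs where 116 were expected, 2.01 (1.76 to 2.29), in wild-type cells and 195 where 91.1 were expected, 2.14 (1.85 to 2.46), in knockout cells. The other 15 combinations together gave 222 pairs where 225 were expected, 0.986 (0.860 to 1.12), and 175 where 173 were expected, 1.01 (0.868 to 1.17), and so were at the expectation. This split was made after the compartment values had been seen and is a description. *Rpl31* with *Ncl*, 47.0 Mb apart, had 32 pairs and 18 pairs, 2.91 (1.99 to 4.11) and 2.67 (1.58 to 4.21). *Nop58* with *Ncl*, 26.7 Mb apart, had 42 and 41 pairs, 2.48 (1.79 to 3.36) and 3.08 (2.21 to 4.17). *Nop58* with *Rpl37a* had 47 and 44 pairs, 1.78 (1.30 to 2.36) and 1.95 (1.41 to 2.61).

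Pooled over its partners, *Wdr75* had fewer contacts than distance gives in wild-type cells. With all other members it had 76 pairs in wild-type cells, 0.702 (0.553 to 0.879) of the expected number, and 83 in knockout cells, 0.932 (0.743 to 1.16), and the ratio between the libraries was 1.33 (0.961 to 1.84). Its single intervals below 1 were with *Rpl31*, 0.621 (0.379 to 0.959), and *Rpl37a*, 0.467 (0.202 to 0.920), in wild-type cells. In knockout cells they were with *Nop58*, 0.482 (0.231 to 0.887), and *Ncl*, 0.275 (0.0334 to 0.995). All other intervals of *Wdr75* held 1. Its combination with *Rpl37a* was the 1 of 21 whose ratio between the libraries excluded 1, with 8 and 17 pairs and a ratio of 2.59 (1.06 to 6.92), beside 2.98% of all bin combinations at least 5 Mb apart. *Rpl7* was near the expectation with its partners, 1.09 (0.885 to 1.33) and 0.965 (0.743 to 1.23), and *Rrs1* above it, 1.36 (1.13 to 1.63) and 1.34 (1.07 to 1.66).

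Sorted by function, the combinations had overlapping intervals. Combinations of 2 nucleolar genes stood at 1.36 (1.12 to 1.64) and 1.42 (1.14 to 1.75), mixed combinations at 1.33 (1.19 to 1.50) and 1.43 (1.26 to 1.62), and combinations of 2 ribosomal protein genes at 1.29 (0.976 to 1.67) and 1.21 (0.855 to 1.66). Pairs of A bins at least 5 Mb apart had 1.24 and 1.25 as a whole. With the expectation taken from pairs of A bins, the members pooled stood at 1.07 (0.972 to 1.17) and 1.11 (1.00 to 1.23). This pool joins unlike parts and takes in *Wdr75*, which was in B. The 4 high members stood at 1.63 (1.43 to 1.85) and 1.72 (1.49 to 1.98), and all other combinations at 0.784 (0.684 to 0.894) and 0.795 (0.682 to 0.922). The expectation was also matched to the 20% class of the compartment track that each bin lies in, a setting chosen after seeing the data. The members pooled then stood at 1.15 (1.05 to 1.27) and 1.18 (1.06 to 1.31). The combinations of *Ncl* were then at 1.39 (1.16 to 1.64) and 1.37 (1.12 to 1.65), and the 4 high members at 1.24 (1.08 to 1.40) and 1.22 (1.05 to 1.40). Those of *Wdr75* were at 0.929 (0.732 to 1.16) and 1.29 (1.03 to 1.60), no longer below the expectation, with a ratio between the libraries of 1.39 (1.01 to 1.92). For each other member the interval of that ratio held 1, and no share of all bins is given for this expectation.

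**Figure D3:**
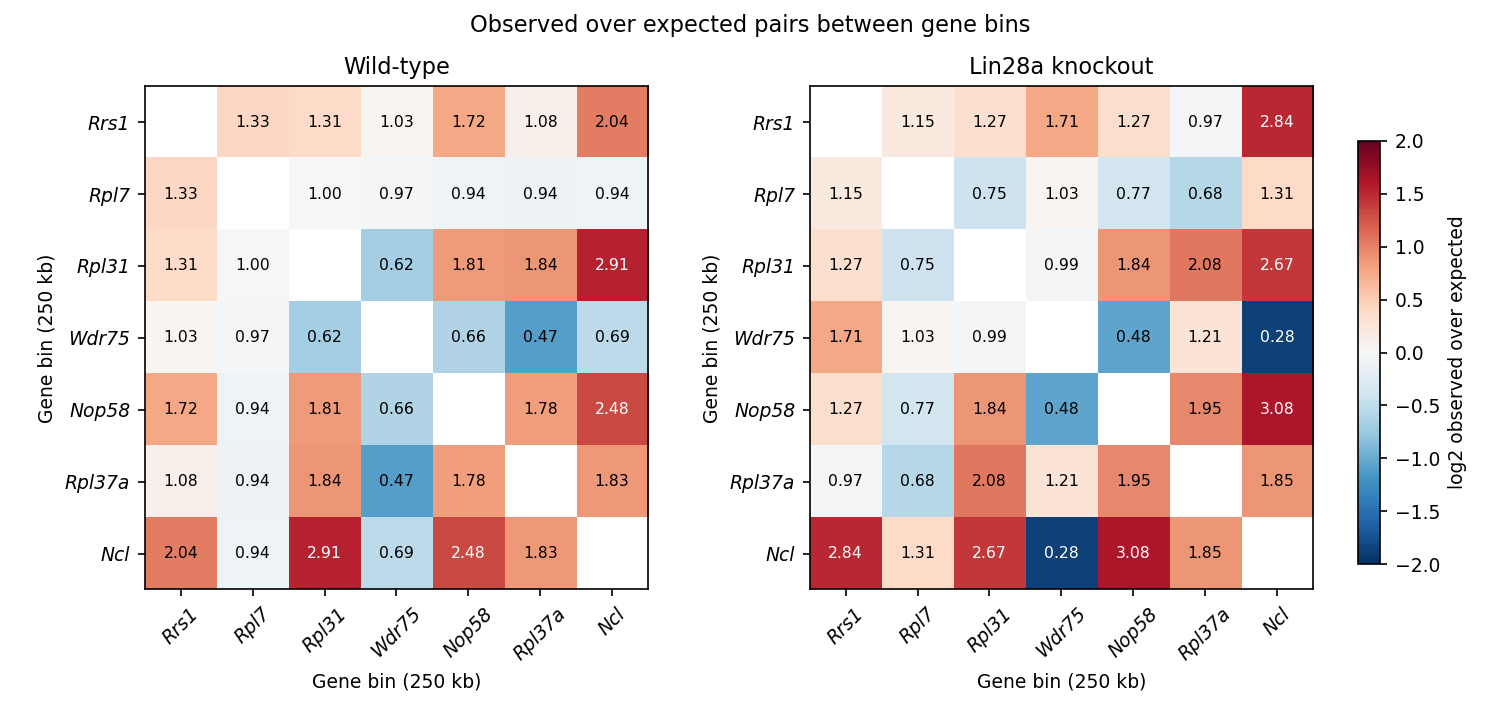
Observed over expected pairs between the 250 kb bins of the 7 genes, in order along the chromosome on both axes, in wild-type cells (left) and the knockout library (right). The colour is the log2 of the ratio printed in each cell, and the cells among *Rpl31*, *Nop58*, *Rpl37a* and *Ncl* are all at 1.78 or more in both libraries.

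The contact rows of the members as a whole put the same 4 bins together. Compartment values are themselves drawn from such rows, so this is not a separate view. In the summed map of both libraries, each member's row of log2 observed over expected values, over 333 or 334 bins more than 2 Mb away, was set against the mean row of the other 6. Pearson's r was 0.75 for *Nop58*, 0.72 for *Rpl31*, 0.67 for *Rpl37a*, 0.62 for *Ncl*, 0.45 for *Rrs1*, 0.22 for *Rpl7* and -0.23 for *Wdr75*. Over all bins the median r was -0.07. These are descriptions across bins, which share libraries and depth. Outside the members and their neighbours, the bins most like the mean member row were at 63000001 to 63250000 (r = 0.81), with *Ino80d*, *Ndufs1*, *Eef1b2* and *Gpr1*, at 34000001 to 34250000 (0.81), with *Dst*, and at 36250001 to 36500000 (0.80), with *Neurl3*, *Arid5a*, *Kansl3*, *Fer1l5*, *Lman2l* and *Cnnm4*. All 3 had compartment values of 1.47 or more in both libraries.

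Contacts with the ends of chromosomes 12, 15, 16, 18 and 19 were read as the share of trans pairs with these chromosomes that fell in their first 20 Mb, next to the centromere. The repeats themselves are not in the assembled sequence, so this is a measure of the neighbouring sequence. For *Rrs1* the share was 23.9% (21.9% to 26.0%), 413 of 1729 pairs, in wild-type cells and 30.4% (27.9% to 32.9%), 408 of 1343, in knockout cells. For *Rpl7* it was 25.8% (23.5% to 28.1%), 367 of 1423, and 33.0% (30.1% to 36.0%), 335 of 1015. Both of these members near the centromere of chromosome 1 were thus higher in knockout cells, with log2 odds ratios of 0.48 (0.24 to 0.71) and 0.50 (0.25 to 0.76). In 100 kb bins the interval of *Rpl7* took in 0, at 0.35 (-0.01 to 0.72), and that of *Rrs1* did not. No share of all bins is given for that size.

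Toward the far end of the stretch the difference was smaller or turned its sign. *Rpl31* had 22.3% and 24.0%, log2 odds ratio 0.14 (-0.08 to 0.35). Its interval excluded 0 for the first 10 Mb, at 0.32 (0.04 to 0.61), and in 1 Mb windows, at 0.23 (0.12 to 0.35). No share of all bins is given for either of these settings, so they do not set *Rpl31* apart. In the setting of its first value, all bins from 33 to 43 Mb, that of *Rpl31* included, stood at 0.22 (0.18 to 0.25). *Wdr75* had 23.9% and 25.0%, 0.08 (-0.21 to 0.38). *Nop58* had 17.8% (16.3% to 19.4%) and 21.1% (19.2% to 23.0%), 0.30 (0.08 to 0.53). *Rpl37a* had 18.8% and 17.4%, -0.13 (-0.39 to 0.13), and *Ncl* had 18.1% and 17.1%, -0.11 (-0.35 to 0.14). Counting intervals put 3 of 7 members higher in knockout cells, beside 26.1% of all bins, and 0 lower, beside 1.72% of bins.

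The bins within 5 Mb of each member showed the same course along the chromosome. Around *Rrs1* they had 24.9% and 29.8%, a log2 odds ratio of 0.35 (0.31 to 0.39), around *Rpl7* 24.6% and 29.2%, 0.34 (0.29 to 0.38), and around *Ncl* 18.96% and 18.6%, -0.04 (-0.08 to 0.01). For 6 of 7 members the interval of the odds ratio held the value of its surroundings, although the share of *Rpl7* in knockout cells was above its own. No share of all bins is given for this comparison, so the 1 exception cannot be weighed. It was *Nop58*, whose surroundings had 20.7% and 21.4% and a log2 odds ratio of 0.05 (0.01 to 0.10). In wild-type cells its share was below theirs, and in knockout cells its interval held theirs. The interval of the *Nop58* odds ratio took in 0 in 4 other settings: 0.07 (-0.29 to 0.43) in 100 kb bins, 0.09 (-0.03 to 0.21) in 1 Mb windows, 0.17 (-0.03 to 0.38) with all autosomes as the denominator and 0.30 (-0.01 to 0.61) for the first 10 Mb. With chromosomes 6 and 8 left out of that denominator it was 0.23 (0.03 to 0.44) and excluded 0, but no share of all bins is given there.

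The other autosomes were read in the same way. With their first 20 Mb, *Rrs1* went from 18.6% to 24.1%, log2 odds ratio 0.47 (0.34 to 0.60), and *Rpl7* from 17.2% to 22.1%, 0.44 (0.29 to 0.59). *Ncl* had 8.49% (7.90% to 9.10%) and 7.10% (6.49% to 7.75%), -0.28 (-0.45 to -0.10). *Wdr75* had 0.29 (0.11 to 0.47), *Rpl31* 0.21 (0.07 to 0.35), *Rpl37a* -0.02 (-0.20 to 0.16) and *Nop58* -0.03 (-0.17 to 0.12), so *Nop58* was not higher here. In all, 4 of 7 members were higher in knockout cells beyond counting error, beside 42.4% of bins, and 1 was lower, beside 8.60% of bins. Pooled over the 7 bins, the log2 odds ratio was 0.19 (0.10 to 0.28) with the ribosomal DNA chromosomes and 0.18 (0.12 to 0.24) with the others, and over all bins it was 0.15 (0.14 to 0.17) and 0.18 (0.17 to 0.19). The member intervals held the values of the stretch as a whole. Without chromosomes 6 and 8 among the others, *Rrs1* had 0.50 (0.36 to 0.64), *Rpl7* 0.44 (0.28 to 0.61) and *Ncl* -0.25 (-0.45 to -0.06). By partner chromosome, the pooled member value was 0.13 for chromosome 12, 0.13 for 15, 0.27 for 16, 0.17 for 18 and 0.15 for 19. The values over all bins were 0.19, 0.20, 0.14, 0.11 and 0.11 in the same order. The member interval for chromosome 16 (0.08 to 0.45) excluded 0 and the other 4 did not, and all 5 held the value over all bins.

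**Figure D4:**
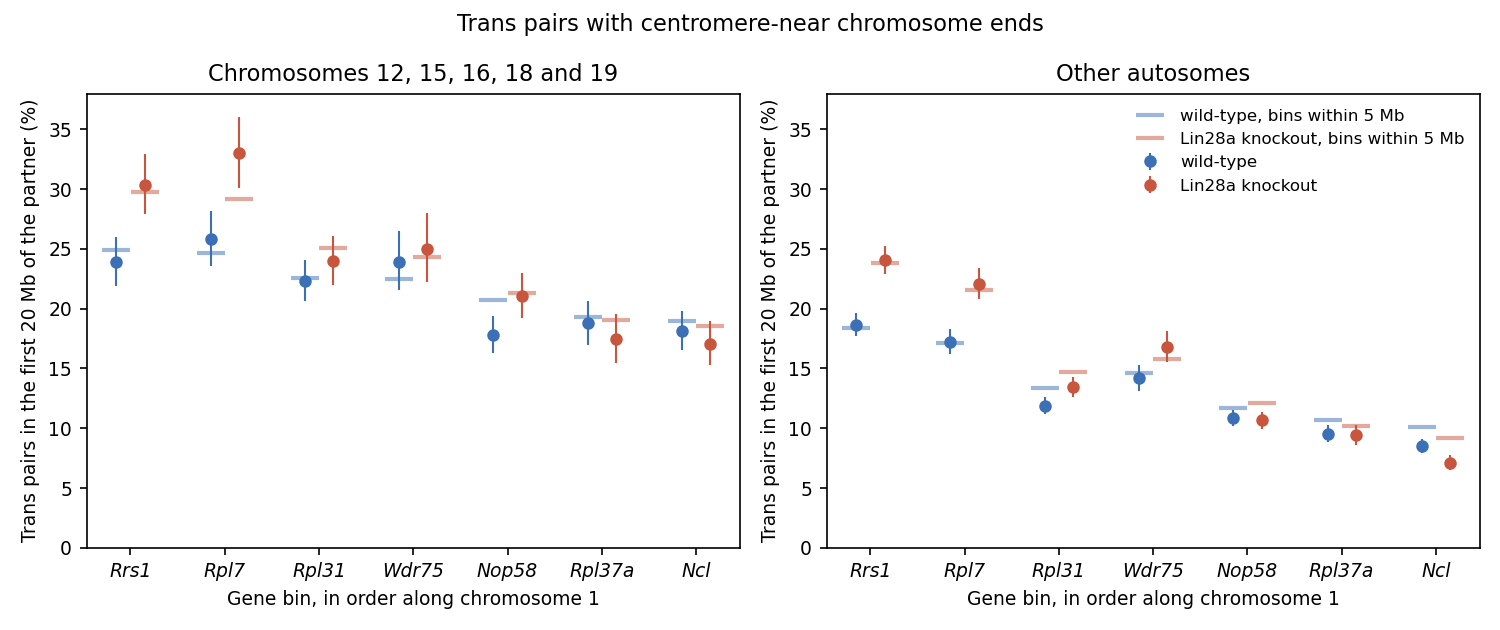
Share of trans pairs of each gene bin that fall in the first 20 Mb of the partner chromosome (y axis, %), with chromosomes 12, 15, 16, 18 and 19 (left) and the other autosomes (right). Points are the wild-type (blue) and knockout (red) libraries with 95% binomial intervals, and short bars are the bins within 5 Mb: on the left, *Rrs1* and *Rpl7* are at 30.4% and 33.0% in the knockout library, and their surroundings are at 29.8% and 29.2%.

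Contacts with like genes elsewhere were read as the share of autosomal trans pairs whose far end fell in a 250 kb window around one of 78 ribosomal protein genes on other autosomes, paralogs such as *Rpl3l* included. *Ncl* had 1.88% (1.63% to 2.15%), 200 pairs, in wild-type cells and 1.68% (1.42% to 1.99%), 138 pairs, in knockout cells. *Rpl31* had 1.56% and 1.52%, *Rpl37a* 1.51% and 1.41%, and *Nop58* 1.50% and 1.72%. *Rrs1* had 1.17% and 1.06%, *Wdr75* 1.10% and 0.743%, and *Rpl7* 0.950% and 1.03%, so the 4 members high in A had the 4 highest shares in both libraries.

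Pooled over the members the share was 1.44% (1.35% to 1.54%) in wild-type cells and 1.39% (1.29% to 1.50%) in knockout cells, a ratio of 0.965 (0.871 to 1.07). Without chromosomes 6 and 8 the ratio was 0.995 (0.896 to 1.10). Bins in A had 1.28% and 1.29%, and bins in the top 20% by compartment value had 1.42% and 1.47%. The 4 high members had 1.62% (1.50% to 1.75%) and 1.59% (1.46% to 1.74%) beside that class. The interval of the ratio between the libraries held 1 for each of the 7 members, from 0.673 (0.421 to 1.06) for *Wdr75* to 1.14 (0.913 to 1.43) for *Nop58*. Each member had only 31 to 200 such pairs per library, and no share of all bins is given for this reading. In the *Rpl31* bin, 10 wild-type pairs and 1 knockout pair joined a 200 kb window around *Def8* on chromosome 8. That window overlaps none of the partner windows and adds only to the total. No share of all such windows is given, so this split cannot be weighed.

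Windows around 36 nucleolar genes on other autosomes gave a like picture at lower counts. *Ncl* had 0.977% (0.799% to 1.18%) and 0.745% (0.570% to 0.955%), 104 and 61 pairs, and *Rpl31* had 0.765% and 0.942%. Pooled, the members had 0.714% (0.648% to 0.784%) and 0.731% (0.657% to 0.812%), a ratio of 1.02 (0.887 to 1.18), or 1.03 without chromosomes 6 and 8, where the interval also held 1, and the top 20% of bins had 0.726% and 0.752%. The nucleolar members stood at 0.740% and 0.658% and the ribosomal protein members at 0.678% and 0.835%, and the intervals of both ratios held 1.

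**Figure D5:**
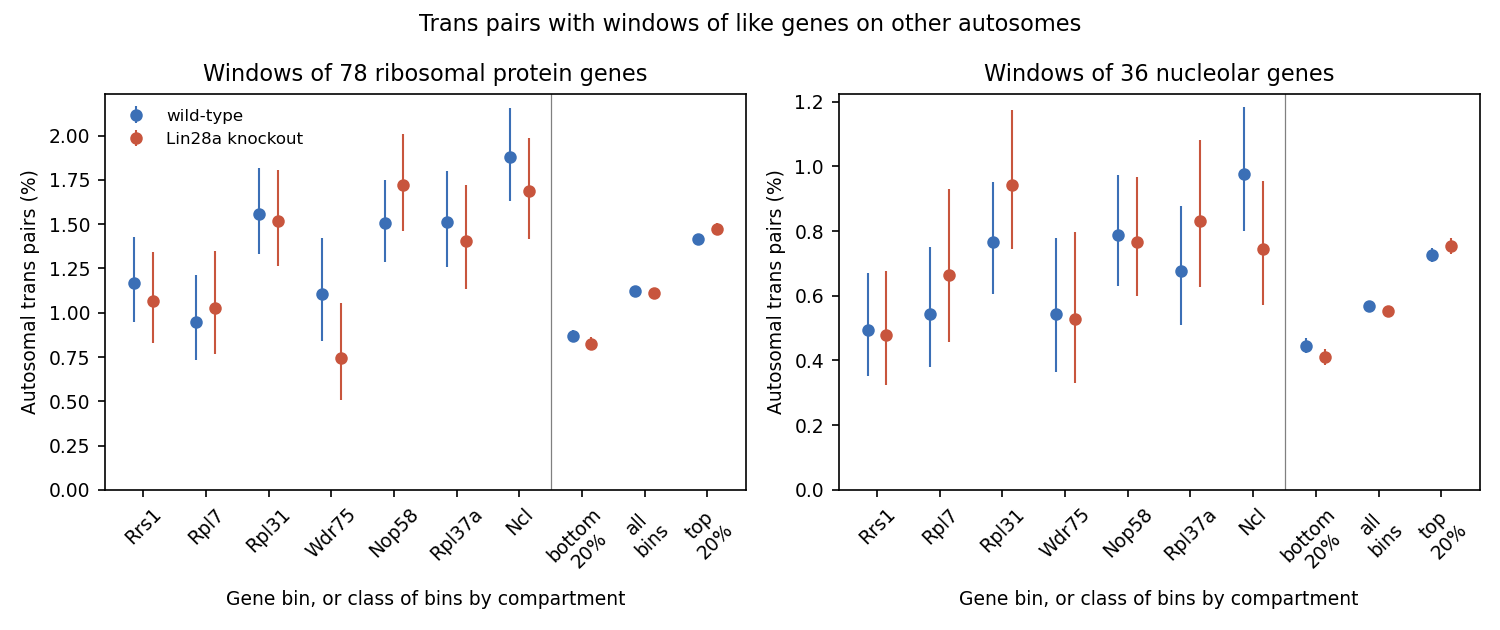
Share of autosomal trans pairs (y axis, %) that join each gene bin to windows around 78 ribosomal protein genes (left) and 36 nucleolar genes (right) of other autosomes, with 95% binomial intervals. The 3 classes on the right of each panel are the bottom 20%, all and the top 20% of bins by compartment value, and *Ncl* has the highest wild-type share in both panels.

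Other genes of ribosome assembly and translation in the stretch were looked up from a list of 15: *Mrpl15*, *Imp4*, *Mrpl30*, *Eif5b*, *Mrps9*, *Gtf3c3*, *Mars2*, *Bzw1*, *Wdr12*, *Eef1b2*, *Fastkd2*, *Farsb*, *Mrpl44*, *Dis3l2* and *Eif4e2*. Of these 14 were in A in both libraries, beside 64.5% and 65.0% of coding bins, with a median compartment value of 1.39 and 1.50, and the exception was *Mrpl44*, a mitochondrial ribosomal protein gene, at -0.52 and -0.46. At or next to a boundary were 9 in each library, beside 45.9% and 45.3% of coding bins. A compartment difference over 0.25 SD was found for 1 of 15, beside 8.33% of all bins: *Fastkd2*, a gene of mitochondrial ribosome assembly, at 0.79 and 1.31. An insulation difference over 0.1 was found for 3 of 15, beside 16.3% of all bins, higher in knockout cells for *Bzw1* (-0.44 and -0.30) and *Mrpl44* (-0.14 and -0.02) and lower for *Mars2* (-0.19 and -0.33). *Imp4*, a nucleolar gene of the small subunit precursor, had 1.43 and 1.50 for compartment and -0.55 and -0.54 for insulation. *Wdr12*, a partner of *Bop1* and *Pes1* in large subunit assembly that lies close to *Nop58*, had 1.45 and 1.55.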

How the data were processed

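Per the labels, formaldehyde cross-linked ES cells gave Hi-C libraries that were sequenced as paired ends, and the submitters' processing notes name CASAVA 1.8, Bowtie2, HiC-Pro and build mm10 (GRCm38). The restriction enzyme, filters and pooling are not given in the sources used here. The deposited lists give, per valid pair, both positions, a fragment number and a mapping quality score of each end (11 to 42), with no normalization by the authors. For 99.8% of 5794 positions sampled, the fragment number equalled the count of GATC sites to within 1. Lists were partial, and only pairs with a first end on chromosome 1 from 3 to 90.75 Mb entered.

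Contact maps took cis pairs of 20 kb or more inside the stretch, thinned to 1973740 per library, balanced by iterative correction, with bins under 20% of the median total left out. Of the first 2 patterns of contacts, the one more correlated with coding gene count gave the compartment values, which were signed by gene count. Expected pairs between members used unthinned maps and distances smoothed over 2 bins to either side. Intervals were exact binomial for shares, exact Poisson for observed over expected, exact binomial splits for ratios, log-normal for odds and normal for differences of shares. Bins under 1000 cis pairs or 200 trans pairs were left out of backgrounds. Contact rows had a floor of 0.1 on observed over expected values. Steps were tested on simulated maps. Tools were Python 3.11.15, numpy 2.4.6, pandas 2.3.3, scipy 1.17.1 and matplotlib 3.10.9.

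Members, lists and thresholds were chosen with earlier results of these data known. Genes named are the 7 members, *Lin28a*, coding genes in the members' bins (1 is not reported here), those of the 3 most alike bins, and the listed pathway genes. *Wdr12* came from the list for other chromosomes, since it lies on chromosome 1. *Def8*, *Rpl3l*, *Bop1* and *Pes1* are named outside this rule. Alternatives covered mapping quality, runs, thinning, balancing, bin and window sizes, denominators and expectations.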

Additional observations from a re-analysis of the deposited data

How the results depend on the processing

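With 1 library per group no result has a test, and a value is said to move where it left the counting interval of the value reported. For compartment and insulation the limit was the spread over members for medians. For single members it was the SD of the knockout minus wild-type differences over all bins. No paired analysis was possible because each group has 1 library. The median insulation difference moved to 0.0802 with a 300 kb square. The pooled local cis difference moved to 0.925 points in 100 kb bins and to 1.17 points with partners up to 2 Mb, and it reversed to -1.38 points with pairs up to 10 Mb as the denominator, where *Rrs1* had -0.497. Contacts between members over expectation became 1.07 (wild-type) and 1.11 (knockout) against pairs of A bins, 1.66 and 1.71 without correction for bin totals, and 1.60 in knockout cells with 100 kb bins. With 20% classes of the compartment track, added after seeing the data, they were 1.15 and 1.18. Leaving out each member gave 1.18 to 1.63 in wild-type cells and 1.24 to 1.64 in knockout cells, highest without *Wdr75* and lowest without *Ncl*. The pooled log2 odds ratio for the first 20 Mb of ribosomal DNA chromosomes was 0.0826 with all autosomes as the denominator (0.146 without chromosomes 6 and 8, 0.0635 to 0.229), 0.0823 (-0.0586 to 0.223) in 100 kb bins, where it no longer excluded 0, and, chosen after seeing the data, 0.0726 (-0.0356 to 0.181) without *Rrs1* and *Rpl7*. Leaving out each member gave 0.13 to 0.23. Leaving out each member gave 0.05 to 0.06 SD for the compartment difference, -0.00 to 0.01 for insulation, 0.283 to 0.591 points for the local share, 0.00 to 0.12 for the log2 ratio of member contacts and -0.12 to -0.02 for that of ribosomal protein windows. Levels that changed sign were the compartment of *Rpl7* in 500 kb bins (-0.20 in wild-type cells and -0.24 in knockout cells), the insulation of *Rpl37a* without balancing (0.39 and 0.40) and that of *Rpl31* with a 1 Mb square (-0.12 and -0.0562). The causes were not tested. At a mapping quality of 30 or more and in the larger run alone no value left its range, but the pooled local cis difference, 0.388 points (-0.0684 to 0.845) and 0.403 points (-0.0355 to 0.842), no longer excluded 0, and the insulation difference of *Nop58* passed 0.1 (0.131 and 0.113). The median compartment difference of 0.05 SD was 0.01 in 500 kb bins and 0.09 in 100 kb bins, within the spread over members, although those of *Rpl31* (0.33), *Nop58* (0.30) and *Rpl37a* (-0.27) moved in 100 kb bins. The ratio for ribosomal protein windows moved under no alternative. Depth limits single combinations of members most, with 2 to 47 pairs each.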
